A study of Mus musculus with 12 samples.

Results

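The genes described here build the junctions between epithelial cells: tight junctions, adherens junctions and desmosomes. Members were taken by symbol. They were every claudin of the form Cldn plus a number, the genes of the ZO (Tjp) family, the desmogleins and desmocollins, and 16 further named genes such as Ocln, Cdh1, Dsp and Jup. This gave 54 of the 23337 gene symbols in the count tables. They were measured in peeled urothelium, the epithelial lining of the urinary tract peeled off the underlying tissue, of mice labelled Stag2-WT or Stag2-KO. All animals, WT included, had eaten TMX in their food (taken to mean tamoxifen, the usual inducer of Cre recombinase), and tissue was collected 1 week or 1 month after that began. Each of the 4 combinations of genotype and time had 3 libraries, which are called WT or KO below. The strain, the age of the animals and the driver of the recombination are not given in the sources used here. Stag2 encodes a component of cohesin, a ring that shapes chromatin loops and keeps sister chromatids together.

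Tight junctions seal the space between neighbouring epithelial cells near their apical side. Claudins form the strands of the seal and set which ions pass, occludin and the MARVEL proteins join them in the membrane, and the ZO proteins and cingulin tie the strands to actin. Adherens junctions hold cells together through E-cadherin and its catenins. Desmosomes link the keratin filaments of adjacent cells through desmosomal cadherins, plakoglobin, plakophilins and desmoplakin. The urothelium is one of the tightest epithelia known, and its superficial umbrella cells carry most of the seal against urine.

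The upstream sequences of 3 members are shown first: Tjp1 and Dsp because they were the only members that passed the test in the comparisons below, and Cldn4 because it had the highest level among the claudins. Each is the 250 bases before the RefSeq start site on the GRCm38.p6 assembly, written 5′ to 3′ on the strand of the gene. Capitals mark the GC box, GGGCGG on either strand. RefSeq windows matched 28 of the 54 members.
Tjp1, chr7:65371245-65371494, minus strand: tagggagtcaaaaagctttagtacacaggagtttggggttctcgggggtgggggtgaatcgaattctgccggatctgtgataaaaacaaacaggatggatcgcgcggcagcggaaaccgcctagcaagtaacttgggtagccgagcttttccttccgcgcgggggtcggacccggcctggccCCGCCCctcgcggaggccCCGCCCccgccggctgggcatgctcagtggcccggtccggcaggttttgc
Dsp, chr13:38151044-38151293, plus strand: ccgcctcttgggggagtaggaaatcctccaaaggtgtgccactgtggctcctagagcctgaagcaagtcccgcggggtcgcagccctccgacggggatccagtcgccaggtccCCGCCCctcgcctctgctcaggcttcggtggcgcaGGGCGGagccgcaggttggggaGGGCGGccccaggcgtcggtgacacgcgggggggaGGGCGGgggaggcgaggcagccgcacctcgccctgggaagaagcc
Cldn4, chr5:134946935-134947184, minus strand: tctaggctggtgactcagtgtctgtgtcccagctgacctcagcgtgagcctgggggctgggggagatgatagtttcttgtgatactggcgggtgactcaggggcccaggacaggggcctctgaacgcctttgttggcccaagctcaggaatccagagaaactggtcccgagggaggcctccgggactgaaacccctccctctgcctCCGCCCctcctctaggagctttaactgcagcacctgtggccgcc
The Tjp1 window held 2 GC boxes, the Dsp window 4 and the Cldn4 window 1. Of 32851 RefSeq windows of this length, 32.7% held at least 1, so a match is common. GC made up 63.2% of the Tjp1 bases, 72.4% of the Dsp bases and 62.0% of the Cldn4 bases, against a median of 52.4% over all windows. The study's title names DREAM, which holds cell cycle genes silent through the CHR element, TTTGAA on either strand. Neither the Tjp1 nor the Dsp window held these letters, which 16% of all windows held. The E2F motif TTTNGCGC was in none of the 3 windows and in 1.13% of all windows. These are matches of letters within these windows only.

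Total counts ran from 5580961 to 9497088 per library. The targeted gene, Stag2, was lower in each KO library than in every WT library of its time: 108 to 154 CPM (counts scaled to library size by TMM) in WT and 60.9 to 76.0 in KO at 1 week, and 46.2 to 61.8 in WT and 19.2 to 37.9 in KO at 1 month. Xist, the RNA of the inactive X, had 13 counts or fewer in each WT library of 1 week and at least 6392 in every KO library, and 4 Y-linked genes had 1360 to 2140 counts in WT and 0 to 4 in KO. The labels used here give no sex, and genotype cannot be told apart from these sex-linked differences at that time. At 1 month only KO replicate 3 carried Xist, with 7764 counts, and it had 0 Y-linked counts. Per the labels, batch 1 held all libraries of 1 week, batch 2 replicates 1 and 2 of both genotypes at 1 month, and batch 3 replicate 3 of both. Time and batch therefore cannot be told apart. All 16 urothelial markers were detected in every library, and the stromal markers were too. The summed level of 8 fibroblast markers ran from 3509 to 5716 CPM in WT and 4696 to 10213 in KO at 1 week. At 1 month WT had 9930 to 13950 and KO 8009 to 9608, although 3 of the 8 markers had a positive log2 fold change. Replicates are separate libraries, and p-values measure the spread between these libraries.

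Few of the claudins were well detected. Of the 26 claudin symbols, 6 had no count in any library, namely Cldn6, Cldn14, Cldn16, Cldn24, Cldn26 and Cldn27, and 7 more had at most 3 counts, Cldn3 among them. Cldn4, a sealing claudin of the urothelium, had 490.4, 440.3 and 434 CPM in the WT libraries of 1 week. Cldn7, which is found along the lateral membrane, had 89.6, 70.8 and 82.3 CPM there, and Cldn8, another sealing claudin, had 35.4, 32.4 and 48.9 CPM. Each library primes near the 3′ end of a transcript, so a level counts tags and was not divided by length. The 3 claudins kept the same order in each of the 3 WT libraries, and their ranges did not overlap. The row Cldn25 had 30.5, 31.9 and 32.9 CPM. Its symbol is an older name of 2 RefSeq genes, Cldnd1 on chromosome 16 and the pseudogene Cldn25-ps on chromosome 9, so what it measured is uncertain.

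The other junction parts were each carried by a few genes. Cdh1 (E-cadherin) had 867, 739.8 and 677 CPM in WT at 1 week, and Ctnna1 (alpha-catenin, the link to actin) had 336, 322 and 366. Perp, a desmosomal membrane protein of stratified epithelia, had 402, 390.0 and 344 CPM, and F11r (the junctional adhesion molecule JAM-A) had 282, 232 and 291. Among 9 desmosomal cadherins, Dsg2 had 329.6, 323 and 447 CPM and Dsc2 30.9, 24.9 and 31.7, and the rest stayed under 5 CPM in all 12 libraries. The desmogleins and desmocollins of epidermis, Dsg1a, Dsg1b, Dsg1c and Dsc1, had at most 2 counts in any library. Reads of the 3 Dsg1 copies can be shared between them, so their split is uncertain. Dsg3 had 5, 2 and 4 counts in WT at 1 week and 3, 38 and 14 in KO, and did not pass the filter on low counts at either time. In all, 30 members passed the filter on low counts at 1 week, and those and Cldn10 passed at 1 month.

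At 1 week KO was compared with WT, where genotype cannot be told apart from the sex-linked differences. No tested member passed the test: 0 of 30 reached an adjusted p of 0.05 in edgeR's quasi-likelihood test, where 0.0627% of all 12754 genes did, and 1 had an unadjusted p under 0.05 (Cldn25; 3.33%, against 15.5% of all genes). DESeq2 also called 0 of 30, although it called 7.52% of all genes. The smallest edgeR adjusted p was 0.286. The test had little power at this time, as 3.5% of simulated 4-fold changes were recovered. The median log2 fold change of the members was 0.14, against 0.02 over all genes tested. KO values lay above all WT values for 3 members (10%; Cldn25 and Ocln among them), where 14.1% of all genes did, and below them for 2 (6.67%; Dsc2 and Marveld3), where 12.5% did. These shares did not exceed those over all genes.

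**Figure D1:**
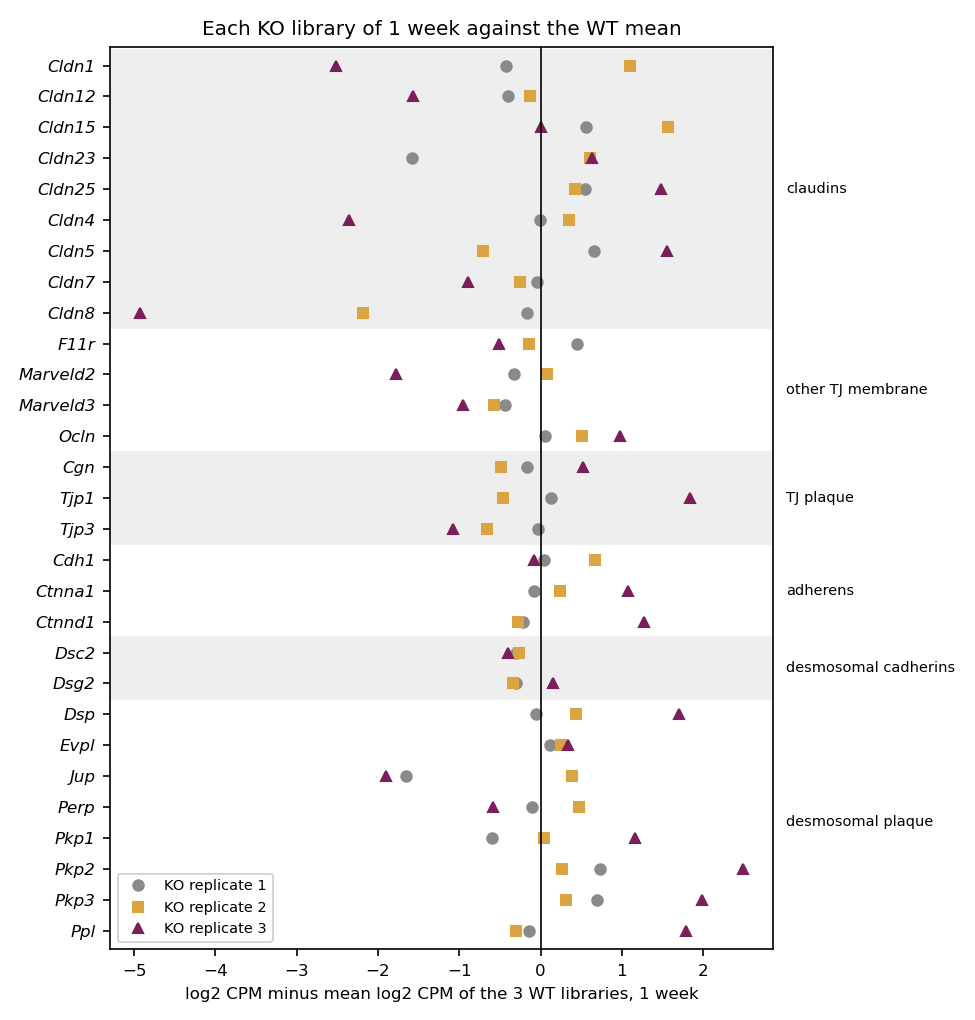
Difference of each KO library of 1 week from the mean of the 3 WT libraries, in log2 CPM, for 29 of the 30 tested members grouped by role. KO replicates 1 and 2 stay near 0 for most genes, whereas KO replicate 3 spreads from -4.92 (Cldn8) to 2.49 (Pkp2).

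The KO libraries of 1 week did not resemble each other in these genes. KO replicate 3 had 11 members more than 1 log2 unit above the WT mean and 7 more than 1 below it, out of 30, where 23% of all genes lay as far above and 28.9% as far below. KO replicate 1 had 0 above and 2 below, and KO replicate 2 had 2 above and 1 below, where all genes gave 7.5% to 10.5% on either side. The spread (SD) of the members' differences was 1.71 in KO replicate 3, against 0.55 and 0.67 in the other two. Over all genes it was 1.75, against 0.77 and 0.94, so KO replicate 3 stood apart over the whole table and not in these genes alone.

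Several scaffold and plaque genes were high in KO replicate 3. Tjp1 (ZO-1) had 146, 117 and 201 CPM in WT and 165, 109.7 and 541 in KO. Dsp (desmoplakin, which anchors keratin filaments to the desmosome) had 436, 361 and 536 CPM in WT and 424, 592 and 1429 in KO. For both genes the first 2 KO libraries lay within or close to the WT range and the third far above it. Pkp3 (plakophilin 3, which binds desmoplakin) had 153, 118 and 228 CPM in WT and 260.4, 199 and 634 in KO. Pkp2, another plakophilin, had 7.77, 3.73 and 11.5 CPM in WT and 11.7, 8.38 and 40.2 in KO. Ppl (periplakin, a keratin linker) had 105, 92.3 and 149 CPM in WT and 103, 91.9 and 393 in KO, and Pkp1 had 19.3, 22.4 and 24.6 and 14.4, 22.6 and 49.7. Tjp3 (ZO-3) went the other way, with 37.0, 43.1 and 44.9 CPM in WT and 40.7, 26.2 and 19.6 in KO.

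Other members were low in the same library, and membrane genes were found on both sides. Cldn4 had 452, 579 and 88.5 CPM in KO, so the first library was within the WT range, the second above it and the third well under it. Cldn8 had 34.1, 8.27 and 1.02 CPM in KO, where the last is 5 counts, and KO replicate 2 was also under every WT library. Jup (plakoglobin, shared by desmosomes and adherens junctions) had 107, 150.5 and 70.0 CPM in WT and 32.9, 137 and 27.7 in KO. Marveld2 (tricellulin, which seals the points where 3 cells meet) had 56.9, 74.7 and 44.3 CPM in WT and 45.7, 60.4 and 16.5 in KO. Marveld3 had 18.7, 18.3 and 21.7 CPM in WT and 14.3, 13.0 and 9.99 in KO, without overlap, which gave -0.65 on the log2 scale (SE 0.31, edgeR adjusted p 0.364). Ocln (occludin) was highest in KO replicate 3, with 8.37, 8.86 and 8.80 CPM in WT and 9.03, 12.5 and 17.3 in KO. Cldn1, a claudin of stratified epithelia, had 7.16, 7.81 and 6.11 CPM in WT and 5.12, 15.3 and 1.02 in KO. Cldn5, the claudin of endothelium, was among the high ones, with 10.4, 5.595 and 9.11 CPM in WT and 12.9, 4.85 and 24.3 in KO. Cdh1 was at 778, 1201 and 714 CPM in KO, and KO replicate 3 lay within the WT range. Cldn2, the claudin of leaky epithelia, had 1, 1 and 0 counts in WT at 1 week and 2, 21 and 85 in KO. It did not pass the filter on low counts, so it has no test.

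Without KO replicate 3, the log2 fold change at 1 week fell from 0.88 to 0.15 for Dsp. It turned from 0.82 to -0.22 for Tjp1 and from -0.28 to 0.14 for Cldn4, and the count of called members stayed at 0. Across the 29 tested members with an annotated transcript length, the difference of KO replicate 3 from the WT mean had a Spearman correlation of 0.42 with that length. It was 0.24 over 11217 genes, and -0.11 and -0.10 over the members in KO replicates 1 and 2. These correlations are across genes of 1 library, which are not independent. Beside these values, summed levels of 9 cell cycle markers were 35.8 to 48.7 CPM in WT, and 131, 772 and 566 in KO at 1 week. Smooth muscle markers summed to 117 to 296 CPM in WT and to 362, 1098 and 983 in KO, and endothelial markers to 239.5 to 272 in WT and to 446, 466 and 789 in KO. Immune markers summed to 136 to 226 CPM in WT and to 244, 246 and 468 in KO, and Schwann and neuronal markers to 7.87 to 10.4 in WT and to 18.6, 26.5 and 48.1 in KO. Urothelial markers overlapped, with 13238 to 16305 CPM in WT and 11161 to 15121 in KO. The part of these in the members' values was not tested.

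At 1 month 2 members fell and none rose: 2 of 31 passed (6.45%), both lower in KO. Of all 12139 genes, 269 were called in either direction, and 148 (1.22%) were called lower. Dsp had 354, 314 and 263 CPM in WT and 112, 136 and 139 in KO. Each KO library was less than every WT library, and the KO libraries lay close together. WT averaged 309.9 ± 45.6 CPM (SD, n = 3), and KO averaged 129 ± 14.6. On the log2 scale Dsp changed by -1.26 (SE 0.21), with an edgeR adjusted p of 0.0132. Tjp1 had 49.5, 58.0 and 36.2 CPM in WT and 21.3, 28.9 and 16.4 in KO, again without overlap. Its mean was 47.9 ± 11.02 CPM in WT and 22.2 ± 6.29 in KO, a log2 difference of -1.12 (SE 0.23) with an edgeR adjusted p of 0.0284. In batch 3 both genotypes had less Tjp1 than in batch 2, and the difference was nearly equal: -1.10 in batch 2 and -1.13 in batch 3. For Dsp it was -1.43 and -0.92. Batch 3 sets 1 library against 1, and these also differ in Xist and the Y-linked genes. Fewer cells that make a transcript and less of it per cell cannot be told apart in such bulk tissue.

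**Figure D2:**
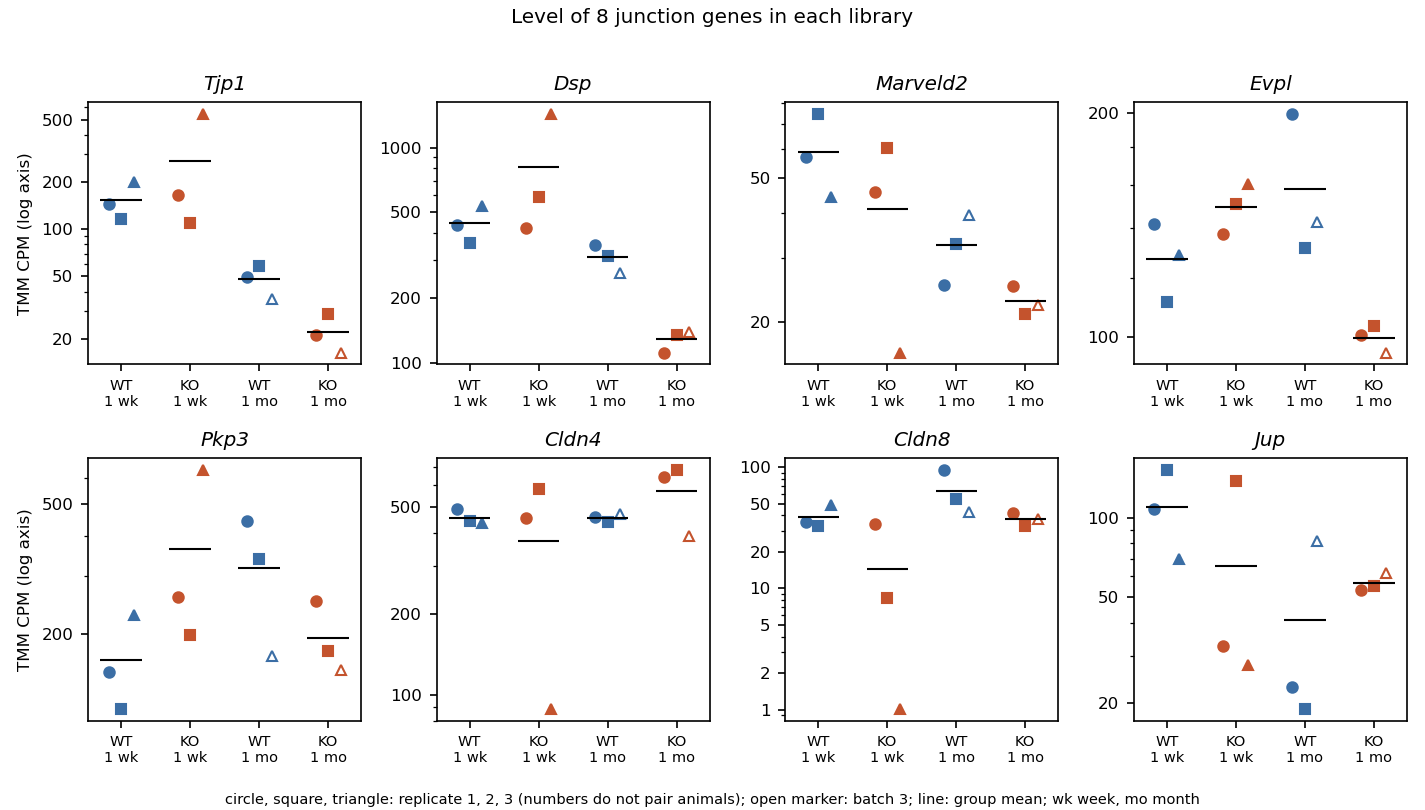
TMM CPM of 8 members in every library on a log axis, with the mean of each group of 3 as a line and open markers for batch 3. Tjp1 and Dsp of the KO libraries at 1 month lie under every WT library of that time, and the triangle of KO at 1 week is KO replicate 3.

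The calls at 1 month rested on the batch term and on few libraries. DESeq2 called the same 2 members of 29, a share close to the 6.98% of all genes that it called. Without the batch covariate 0 of 31 members and 0 of all 12139 genes passed in edgeR, with adjusted p of 0.221 for Dsp and 0.442 for Tjp1. Without a filter on low counts Jup also passed, higher in KO, in a fit that called 1276 of 17990 genes. Leaving out WT replicate 2 or KO replicate 1 ended both calls. Leaving out WT replicate 1 or KO replicate 2 ended that of Tjp1, while both fold changes kept their sign. Calls over all genes also fell in these fits, from 269 to between 45 and 84. In one fit of all 12 libraries, whose spread includes KO replicate 3 of 1 week, 0 of 13122 genes passed at 1 month, these 2 included.

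No tight junction member besides Tjp1 passed at 1 month, and the signs were mixed. Among the claudins 5 were positive and 5 negative, among the plaque genes 2 and 2, and among the other membrane genes 1 and 3. Over all roles, KO values lay below all WT values for 6 of 31 members (19.4%), where 7.61% of all genes did, with Tjp1, Dsp, Evpl, Cldn8 and Marveld2 among them. Cldn8 had 93.9, 54.8 and 42.4 CPM in WT and 41.5, 32.7 and 37.4 in KO, with a difference of -0.96 in batch 2 and -0.18 in batch 3. Marveld2 had 25.3, 32.9 and 39.4 CPM in WT and 25.2, 21.0 and 22.3 in KO, so its nearest libraries differed by little. Tjp3 had 43.0, 31.6 and 37.5 CPM in WT and 45.1, 29.0 and 45.9 in KO, and overlapped.

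Of 8 desmosomal plaque genes, 7 had a negative log2 fold change at 1 month, Dsp among them, and 1 passed. Over all genes, 6116 of 12139 were negative. The median of the 8 was -0.39, against -0.01 over all genes. Perp was near 0, at -0.05, and was 0.18 with total library size. Signs differed between batch 2 and batch 3 for Perp (0.17 and -0.48), Ppl (0.02 and -0.66) and Pkp2 (-0.65 and 0.01). Evpl (envoplakin, the partner of periplakin) had 199, 132 and 142 CPM in WT and 100.4, 103 and 95.2 in KO, with -0.66 on the log2 scale (SE 0.21, edgeR adjusted p 0.108) and within-batch differences of -0.67 and -0.58. Pkp3 had 444, 339.7 and 171 CPM in WT and 252, 177 and 155 in KO, with differences of -0.88 in batch 2 and -0.14 in batch 3. Pkp2 had 21.8, 21.4 and 8.85 CPM in WT and 15.7, 11.8 and 8.94 in KO. Perp had 459, 454 and 440.2 CPM in WT and 518, 508 and 316 in KO, so its groups overlapped around the same level. The desmosomal cadherin Dsg2 had 142, 175 and 209 CPM in WT and 159, 157 and 157 in KO, and Dsc2 had 7.86, 5.75 and 6.41 and 6.27, 6.38 and 3.03. Both pairs of groups overlapped.

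The 1 plaque gene with a positive log2 fold change was Jup. It had 23.0, 19.0 and 81.3 CPM in WT at 1 month and 53.4, 55.3 and 61.7 in KO. The 3 KO libraries lay close together, between the 2 WT libraries of batch 2 and that of batch 3. The difference was 1.36 in batch 2 and -0.40 in batch 3, and both batches together gave 0.77 (SE 0.33, edgeR adjusted p 0.202). With batch 2 alone, whose 4 libraries had at most 28 counts of Xist, 6 members passed, where 12.2% of all genes did. Jup and Cldn15 were higher in that fit, and Dsp, Tjp1, Cldn8 and Pkp3 lower.

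The claudins did not move together at 1 month. Of 10 tested, 5 had a positive and 5 a negative log2 fold change, from -1.32 (Cldn10) to 1.61 (Cldn15), and none passed. Cldn15 had 0.786, 1.26 and 1.22 CPM in WT and 3.08, 4.94 and 2.43 in KO (4 to 8 counts in WT), without overlap. It was the only member above all WT libraries (3.23% of 31), where 5.68% of all genes were, and its edgeR adjusted p was 0.111. Cldn4 had 456, 439 and 469 CPM in WT and 646, 682 and 388 in KO: higher in both KO libraries of batch 2 (difference 0.57) and lower in that of batch 3 (-0.27). Cldn7 had 31.8, 52.5 and 70.6 CPM in WT and 76.0, 39.2 and 39.6 in KO, with differences of 0.42 and -0.83. Cldn23 had 0.196, 0.719 and 9.00 CPM in WT and 2.83, 2.23 and 10.8 in KO, so batch separated its libraries more than genotype did. F11r, which is no claudin but sits in the same strands, had 485, 472 and 269 CPM in WT and 448, 346 and 202 in KO.

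**Figure D3:**
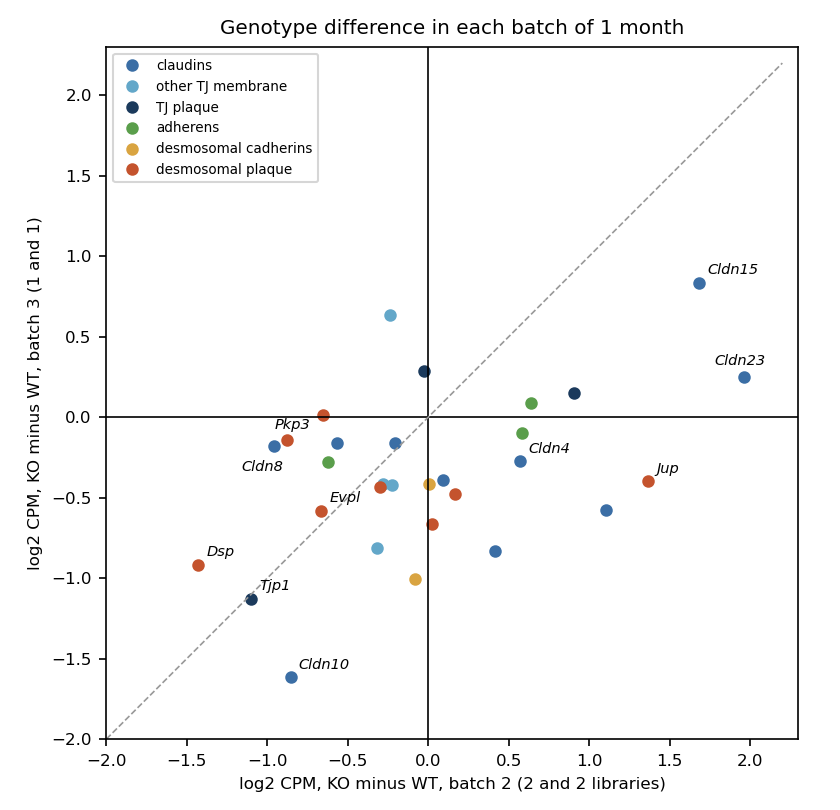
Difference between KO and WT in log2 CPM within batch 2 (x axis, 2 libraries each) and batch 3 (y axis, 1 each) for 30 of the 31 members tested at 1 month, coloured by role, with equality dashed. Tjp1 lies on the dashed line at about -1.1, and Jup has opposite signs in the batches.

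Adherens junction genes did not pass at 1 month. Cdh1 had 301, 429.7 and 804 CPM in WT and 508, 572 and 752 in KO, with differences of 0.58 in batch 2 and -0.10 in batch 3. Ctnna1 had 109.8, 139.9 and 130.3 CPM in WT and 198, 188 and 139 in KO, and 1 KO library lay within the WT range. Ctnnd1 (p120-catenin, which keeps E-cadherin at the surface) had 10.8, 18.7 and 70.9 CPM in WT and 10.2, 8.13 and 58.4 in KO. Cgn (cingulin) had 8.44, 5.03 and 46.2 CPM in WT and 11.6, 13.6 and 51.4 in KO. In both genes the batch 3 library of each genotype was the highest by far. Over all members, 15 of 31 were lower in both batches, 4 were higher in both and 12 had opposite signs. Those lower by more than 0.5 in both were Dsp, Tjp1, Evpl and Cldn10, the last with 7, 8 and 16 counts in KO. The matching shares over all genes were not counted, so these counts are no result about the members.

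Summed markers of some other cells differed between the genotypes at 1 month without overlap, and those of others overlapped. The summed level of 7 immune markers was 495.5 to 1034 CPM in WT and 209 to 312 in KO, and 3 of 5 tested were called lower (Cd74, C1qa and C1qb). Of all 12139 genes, 148 were called lower and 121 higher. Endothelial markers summed to 286 to 369 CPM in WT and to 383 to 581 in KO, with 0 of 8 called. Smooth muscle markers summed to 93.9, 188 and 974 CPM in WT and to 149, 428 and 155 in KO. The highest was the WT library of batch 3. Schwann and neuronal markers overlapped, with 13.0 to 22.5 CPM in WT and 17.2 to 23.3 in KO. The fibroblast markers, whose summed level was lower in KO, had 1 of 8 called higher and 0 called lower. Urothelial markers summed to 17133 to 31324 CPM in WT and to 12133 to 18331 in KO, which overlapped. Of the 16, 4 had a positive log2 fold change. Krt20, a keratin of umbrella cells, was the 1 of 16 called, lower in KO. Mesothelial markers were nearly absent: 3 of 4 had at most 10 counts in any library. Male accessory gland markers had at most 10 counts as well, in 6 of 6. The part of the other cells in the fall of Dsp and Tjp1 was not tested.

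Of 30 members tested at both times, 15 (50%) had opposite signs, where 58.9% of all genes did, so the share is no result about the members. Among the 8 desmosomal plaque genes 7 had opposite signs, and the 1-week values rest largely on KO replicate 3. The interaction test compares the difference of KO from WT at 1 month with that at 1 week, and none of 31 members passed it (0% of 13122 genes did). It had little power, as 5.5% of simulated 4-fold changes were recovered. At 1 week genotype cannot be told apart from the differences in Xist and the Y-linked genes, so the values of this test carry that limit too. An unadjusted p under 0.05 was found for 7 members (22.6%) and for 19.9% of all genes, which are close. The difference was -2.13 for Dsp (SE 0.57, edgeR adjusted p 0.111) and -1.92 for Tjp1 (SE 0.69, adjusted p 0.182). DESeq2 called 1 member, Dsp, where 7% of all genes were called. Dsp also passed in edgeR without KO replicate 1 of 1 week (215 of 13380 genes called) or without KO replicate 3 of 1 week (311 of 13408). Jup passed, with the opposite sign, without KO replicate 2 of 1 week (440 of 13369 genes called).

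**Figure D4:**
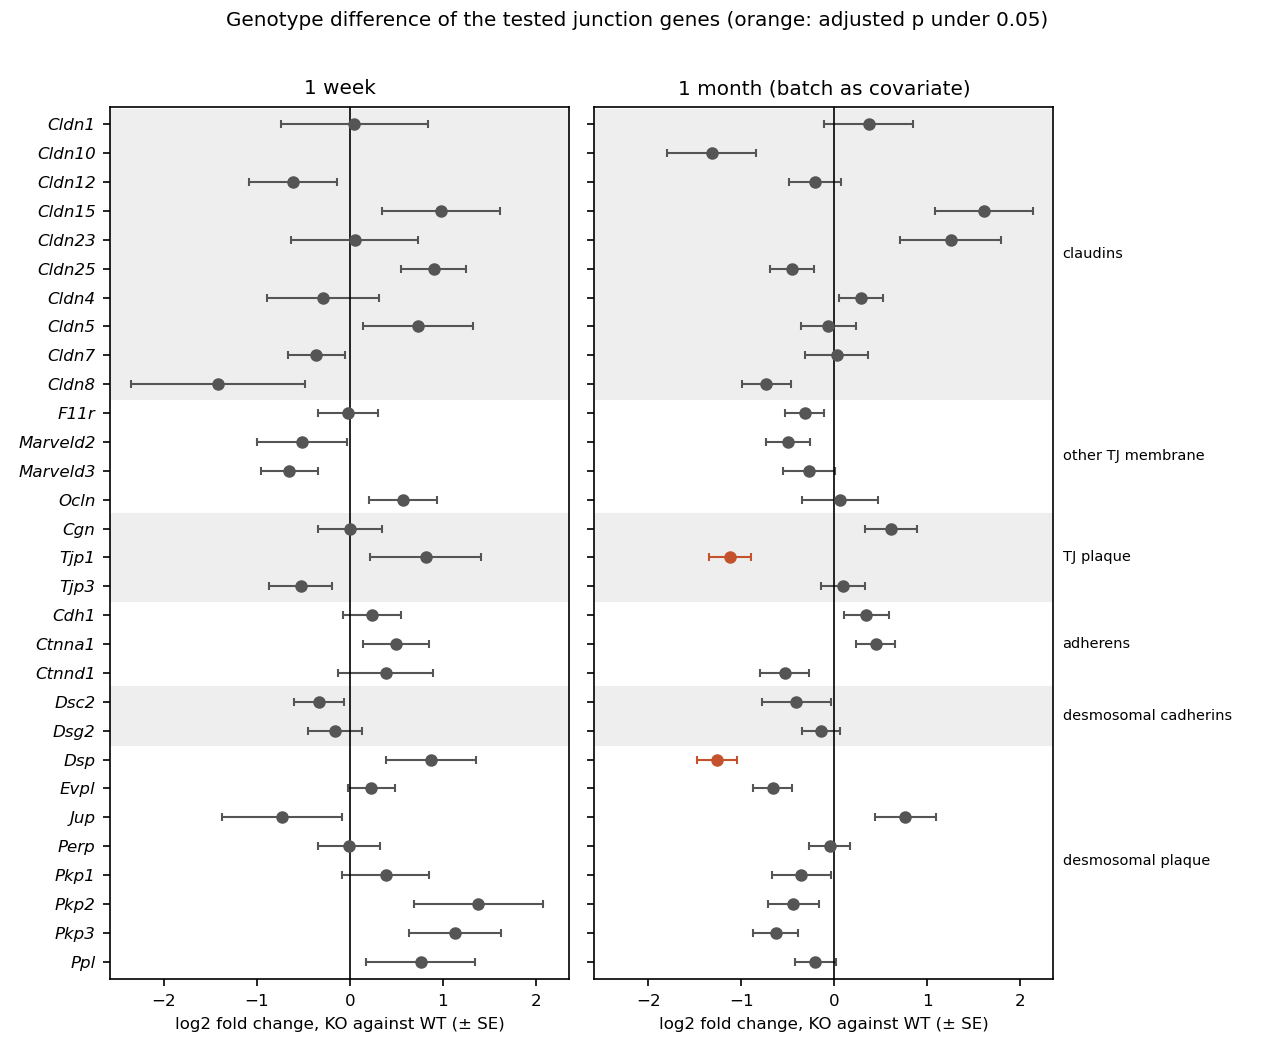
Log2 fold change of KO against WT with its standard error for 29 of 30 tested members at 1 week (left) and 30 of 31 at 1 month (right), by role, with called members in orange. Only Tjp1 and Dsp at 1 month are orange, and the standard errors are wider at 1 week than at 1 month for Tjp1 and Dsp.

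Other genes of the junction pathways were counted from lists. For scale, of all 12139 genes tested at 1 month, 121 were called higher and 148 lower. Of 27 further tight junction genes in the tables, all were tested at both times. None passed at 1 week, and at 1 month 1 was higher and 0 were lower. The one was Tjap1, a tight junction protein also found at the Golgi, with 1.96, 1.98 and 14.0 CPM in WT and 11.6, 14.3 and 22.7 in KO (log2 fold change 1.87, SE 0.41, edgeR adjusted p 0.0359). Its difference was 2.53 in batch 2 and 0.68 in batch 3. Pard3, a polarity scaffold, had a log2 fold change of 0.35 (SE 0.20) and Csda of 0.10 (SE 0.21) at 1 month, both without a call.

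Of further adherens junction genes, 16 were tested at 1 week and 14 at 1 month, and 0 passed at either time. Ctnnb1 (beta-catenin, the E-cadherin partner that also carries Wnt signals) had 797, 877 and 502 CPM in WT and 683, 1510.2 and 101 in KO at 1 week. KO replicate 3 was thus the lowest of the 6, as it was for Jup, the close relative of Ctnnb1. At 1 month Ctnnb1 had 324, 365 and 813 CPM in WT and 536, 777 and 946 in KO (edgeR adjusted p 0.135). Lima1, an actin-binding partner of the catenins, had a log2 fold change of 0.24 (SE 0.21) at 1 month.

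Of 10 tested genes that work with desmosomes, keratins among them, 0 passed at 1 week and 1 at 1 month, lower in KO. This was Krt20, with 291, 158 and 159.9 CPM in WT and 76.6, 55.6 and 47.6 in KO, which gave -1.76 on the log2 scale (SE 0.25, edgeR adjusted p 0.00601). Krt7 and Krt18, the most abundant of this list, had log2 fold changes of -0.40 (SE 0.25) and -0.73 (SE 0.24) and did not pass. Of 27 epithelial regulators, 0 of 27 passed at 1 week, and of 26 tested at 1 month 1 was higher and 0 were lower. Klf5 and Klf4, the most abundant regulators, had log2 fold changes of 0.19 (SE 0.23) and -0.90 (SE 0.23), and neither passed.

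The genes whose levels ran most like those of the 2 called members over the 6 libraries of 1 month were found among 8398 genes with a mean of at least 10 CPM. For Dsp they were Nlrc5, Fer1l4 and Pdzd4, with Pearson r of log2 CPM between 0.989 and 0.993. For Tjp1 they were Cd74, Ehd4 and Il33, with r between 0.990 and 0.992. Dsp and Tjp1 correlated with each other at 0.890. Among the other members Evpl was the most like either, at 0.899 with Dsp and 0.791 with Tjp1. Ctnna1 was the lowest with Dsp, at -0.840, and had -0.508 with Tjp1. Jup was the lowest with Tjp1, at -0.730, and had -0.627 with Dsp. Cdh1 (-0.482 with Dsp and -0.613 with Tjp1), Cgn (-0.329 and -0.644), Cldn4, Cldn7 and Tjp3 were also negative with both. These points share genotype and batch, and 6 libraries set only a coarse order.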

How the data were processed

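A 3′ kit (QuantSeq, forward version) turned total RNA into libraries, per the labels' protocols. The deposited unit is raw counts per gene symbol from HTSeq, per the labels, 1 table for each time. Bowtie, TopHat, HTSeq, DESeq2 and the build mm10 are named in the submitters' processing notes, and the annotation is not given in the sources used here. Columns were matched to samples by library name. The title of WT replicate 3 at 1 month carries another animal number. Replicates were numbered in accession order and pair no animals. All value columns were assigned, and no pair of replicates agreed within sampling noise.

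From the counts, edgeR (4.0.16, R 4.3.3) with TMM scaling, its default filter on low counts, robust quasi-likelihood fits and two-sided tests gave p-values adjusted (Benjamini-Hochberg) over all genes tested, with a threshold of 0.05. The 6 libraries of each time were fitted apart, and the fit of 1 month included batch. The interaction used all 12 libraries. The SE is the log2 fold change over the root of F. Log2 CPM used a prior count of 2. On simulated data with 200 genes changed 4-fold, 7 were recovered at 1 week (12754 genes), 180 at 1 month (12139 genes) and 11 in the interaction (13122 genes), with 0, 15 and 0 false calls. A floor of 3 counts corresponds to 0.311 to 0.612 CPM, for counting error only.

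Alternatives were DESeq2 (1.42.0), other scaling, other filters, other covariates, and leaving out each library. Members and lists were chosen with earlier results of these data known. Named were called members, up to 3 of highest level in each role and up to 5 of smallest p at each time, and from each list called genes and the 2 of highest level. Jup, Ppl, Pkp1, Tjp3, Cldn1, Cldn5, Cldn2, Cldn10, Cldn23, Ocln and the genes of the closing observations were named after their values were seen. Sequences are from RefSeq (GRCm38.p6), the assembly of mm10. Some items that fall under these rules are counted but not reported here by name, and are left out of the figures.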

Additional observations from a re-analysis of the deposited data

How the results depend on the processing

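No paired analysis was possible because the columns carry no replicate numbers that join animals. The count of members called at 1 week was 0 in all alternatives run. At 1 month it was 2, and 1 with scaling to total library size (Dsp), which moved the median log2 fold change of all genes to 0.22 and left 15 of 31 members negative in place of 20. It was 3 without a filter on low counts, with Jup higher (1276 of 17990 genes called). It was 0 with all 12 libraries in 1 fit (0 of 13122 genes) and 0 without the batch covariate (0 of 12139). It was 6 with batch 2 alone (1474 of 12103) and 6 with batch and Xist as covariates (1430 of 12139). In these fits the members' counts moved with those of the whole table. With total library size they did not: 561 of 12139 genes were called, against 269 in the main fit. DESeq2 called 781 of 11197 genes and left the count of members at 2. Leaving out each library gave from 0 to 6. It was 0 without WT replicate 2 (45 of 12466 genes called) or KO replicate 1 (63 of 12455). It was 1 without WT replicate 1 (83 of 12493) or KO replicate 2 (84 of 12460). It was 6 without the WT library of batch 3 (1522 of 12348) or the KO library of batch 3 (1513 of 12351). In the interaction the count of called members was 0, 1 with DESeq2 (917 of 13101 genes called), and from 0 to 1 when leaving out each library. It was 1 without KO replicate 1 of 1 week (215 of 13380), KO replicate 2 (440 of 13369) or KO replicate 3 (311 of 13408). Dsp at 1 month ranged from -1.43 to -1.03 and was called in 11 of 15 alternatives, with adjusted p from 9.84e-06 to 0.474. Tjp1 ranged from -1.25 to -0.89 and was called in 8 of 15, with adjusted p from 0.00109 to 0.550. In 4 of the 15 alternatives the estimate rests in effect on batch 2 and both were called. They are nearly the same fit, and among the other 11 Dsp was called in 7 and Tjp1 in 4.

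Among log2 fold changes of single members, 28 of 564 values under an alternative changed sign. The 1-month values of Dsp and Tjp1 were not among them. At 1 week, leaving out each library gave from -0.39 to 0.17 for Cgn, -0.33 to 0.13 for F11r, -0.37 to 0.17 for Perp, -0.0625 to 0.34 for Cdh1, -0.79 to 0.14 for Cldn4, -0.36 to 0.73 for Ctnnd1 and -0.22 to 1.17 for Tjp1. At 1 month it gave from -0.37 to 0.46 for Cldn7, -0.12 to 0.17 for Perp and -0.26 to 0.00159 for Dsg2. Cgn at 1 week was -0.0833 with total library size, -0.0560 without a filter and -0.0201 with all 12 libraries. At 1 month Dsg2 was 0.0811 with total library size and 0.00517 in batch 2 alone, and Cldn7 was -0.000520 without the batch covariate. Perp was 0.18 with total library size, 0.00145 without a filter, 0.17 in batch 2 alone and 0.16 with Xist as a covariate. The cause of these changes was not tested. Low counts limit the rarer members: 17 of 54 had at most 3 counts in every library. A further 6 did not pass the filter on low counts at either time. Among these, Cldn2 reached 85 counts and Dsg3 38 in single KO libraries of 1 week.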

Other observations

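Of 27 tested regulators of epithelial state, 8 (29.6%) lay more than 1 log2 unit above the WT mean in KO replicate 3 of 1 week and 4 (14.8%) more than 1 below it, where 23% and 28.9% of all genes did. The 4 given here were named after their values were seen. Zeb1, a repressor of E-cadherin, had 32.6, 20.2 and 28.9 CPM in WT and 53.0, 43.8 and 320.1 in KO at 1 week. Klf4, a factor of epithelial differentiation, had 266, 259 and 308 CPM in WT and 437, 297 and 1352 in KO. Snai2, another repressor of E-cadherin, had 11.2, 15.0 and 19.0 CPM in WT and 12.1, 22.5 and 5.50 in KO. Epcam, an adhesion protein that binds Cldn7, had 131, 137 and 149.9 CPM in WT and 94.8, 75.8 and 319.9 in KO. The other 2 KO libraries lay above the WT range for Zeb1 and below it for Epcam. None of the 4 genes passed the edgeR test at 1 week, with adjusted p from 0.229 for Zeb1 to 0.894 for Snai2.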
